A study of Mus musculus with 64 samples.

Results

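The 10 glucocorticoid-responsive genes described here are Fkbp5, Sgk1, Tsc22d3, Pdk4, Mt1, Mt2, Map3k6, Cdkn1a, Zbtb16 and Plin4. They were chosen by name as genes known to respond to glucocorticoid hormone, at a time when earlier results of these data were known. The gene lists set beside them below were chosen under the same condition. The 10 are among the 24421 gene symbols in the count table. All 10 had enough reads to be among the 15634 genes tested. Expression was measured by RNA sequencing in punches, 1 mm wide, of the ventral tegmental area (VTA), where the dopamine neurons of the mesolimbic pathway lie. The 64 adult male mice, 1 library each, are of strain 129S1/Svlm. They are labelled Clock delta 19 (called mutant here; the allele makes a CLOCK protein that acts as a dominant negative) or Wildtype. Each mouse was given valproate (VPA, a mood stabiliser that also inhibits histone deacetylases), ACY957 (a histone deacetylase inhibitor) or the vehicle of either drug for 14 days. Brains were collected some 24 h after the final dose, at zeitgeber time 6. The mutant label holds 8 VPA, 13 VPA vehicle, 8 ACY957 and 11 ACY957 vehicle libraries. The wildtype label holds 8 VPA, 3 VPA vehicle, 8 ACY957 and 5 ACY957 vehicle libraries. The design text states 8 mice for every group, so the labels of the vehicle mice differ from it.

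Library totals ran from 20.1 to 37.5 M (mega) counts, with a median of 25.8 M counts. A score of 8 clock output genes split the libraries into an upper and a lower set, and 13 libraries lay on the side opposite to their genotype label, 9 of them vehicle mice labelled mutant. The comparisons below therefore compare labels. Clock itself had group means of 66.1 to 74.9 CPM (counts of the gene per 1000000 counts of the library); the allele alters its protein, so this level does not check the labels. Mutant-labelled mice are numbered 25 to 64 and wildtype-labelled mice 1 to 24, so the label cannot be told apart from anything else that runs with mouse number. Within each label, drug and vehicle mice are also numbered largely in separate blocks. A drug's difference from its vehicle therefore cannot be told apart from anything else that runs with those blocks. Th, the defining enzyme of dopamine neurons, was present in every library, but 4 libraries (2 VPA mutant, 1 VPA vehicle mutant, 1 VPA wildtype) lay under 8 log2 CPM. In bulk tissue, more cells of a type and more RNA per cell cannot be told apart.

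Glucocorticoids (corticosterone in mice) pass into cells and bind the glucocorticoid receptor, which moves to the nucleus and raises or lowers the transcription of its targets. In brain the mineralocorticoid receptor binds the same hormone with higher affinity. The receptor binds DNA as a dimer at inverted repeats of a short hexamer, often at enhancers far from the start site. The genes of the set act at several levels. Fkbp5, Tsc22d3 and Zbtb16 act in feedback and transcription, Sgk1, Map3k6 and Cdkn1a in kinase signalling and the cell cycle, Mt1 and Mt2 bind metal ions, and Pdk4 and Plin4 act in fuel and lipid metabolism.

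Start sites were searched for the receptor's binding letters because these genes varied together between mice. RefSeq windows of 300 bases (250 before the start site, 50 from it on, GRCm38.p6) were at hand for 9 of the 10 genes, 17 windows in all, and none for Zbtb16. Both strands were searched. The full palindrome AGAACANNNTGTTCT was in 1 of the 6 Sgk1 windows, and in 0.00913% (3) of all 32851 windows. The shorter core GNACANNNTGTNC, which overlaps the palindrome, was in that Sgk1 window and in those of Mt1 and Map3k6, against 0.475% of all windows. The metal response cores TGCACNC and TGCGCNC were both in the Mt1 and Mt2 windows, and TGCGCNC also in another Sgk1 window, against 12.6% and 15.4% of all windows. The E-box CACGTG, the site of clock factors, was in the window of Fkbp5 and in the same Sgk1 window, where it overlaps a copy of the hexamer TGTTCT by its last 2 bases, against 7.15% of all windows for the E-box. The hexamer TGTTCT, which is part of the palindrome, was in 3 of the 6 Sgk1 and 1 of the 3 Tsc22d3 windows, against 19.0% of all windows. A match describes these letters only. The windows with a receptor core, that of Mt2 beside its neighbour Mt1, and that of Fkbp5 are shown with the matches in capitals: the full palindrome in Sgk1, receptor core and metal cores in Mt1, metal cores in Mt2, receptor core in Map3k6, and the E-box in Fkbp5.
Sgk1, chr10:21993640-21993939, plus strand: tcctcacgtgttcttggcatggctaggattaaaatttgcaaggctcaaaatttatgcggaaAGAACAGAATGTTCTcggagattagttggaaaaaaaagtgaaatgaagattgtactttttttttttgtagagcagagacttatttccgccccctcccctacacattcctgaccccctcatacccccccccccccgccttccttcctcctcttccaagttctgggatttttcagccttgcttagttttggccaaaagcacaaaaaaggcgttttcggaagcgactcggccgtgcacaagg
Mt1, chr8:94178839-94179138, plus strand: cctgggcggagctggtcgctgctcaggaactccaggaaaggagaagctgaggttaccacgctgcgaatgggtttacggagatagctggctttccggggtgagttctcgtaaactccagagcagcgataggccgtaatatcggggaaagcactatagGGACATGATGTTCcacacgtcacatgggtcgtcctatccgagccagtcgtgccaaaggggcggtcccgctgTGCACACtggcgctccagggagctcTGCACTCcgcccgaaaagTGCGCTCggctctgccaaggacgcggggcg
Mt2, chr8:94172368-94172667, plus strand: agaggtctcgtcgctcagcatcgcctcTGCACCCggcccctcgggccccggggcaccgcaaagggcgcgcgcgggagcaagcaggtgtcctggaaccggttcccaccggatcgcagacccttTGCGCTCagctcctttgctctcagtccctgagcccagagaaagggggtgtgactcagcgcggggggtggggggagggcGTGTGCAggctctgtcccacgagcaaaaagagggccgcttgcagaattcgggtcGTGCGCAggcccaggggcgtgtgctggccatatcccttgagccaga
Map3k6, chr4:133240568-133240867, plus strand: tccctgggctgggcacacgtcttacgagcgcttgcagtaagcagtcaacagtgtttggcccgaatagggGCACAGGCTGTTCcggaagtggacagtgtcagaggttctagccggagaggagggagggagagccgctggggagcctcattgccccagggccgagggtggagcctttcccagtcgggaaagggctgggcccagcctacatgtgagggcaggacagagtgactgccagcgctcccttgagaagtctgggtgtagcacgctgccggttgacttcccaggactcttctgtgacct
Fkbp5, chr17:28486100-28486399, minus strand: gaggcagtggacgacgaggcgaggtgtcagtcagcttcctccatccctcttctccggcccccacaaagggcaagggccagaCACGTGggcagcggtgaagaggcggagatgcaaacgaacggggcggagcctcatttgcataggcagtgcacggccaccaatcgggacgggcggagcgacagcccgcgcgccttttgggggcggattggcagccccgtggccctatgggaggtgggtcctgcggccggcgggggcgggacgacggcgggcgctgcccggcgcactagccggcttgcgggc

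The genes lie at separate places, except that the metallothioneins adjoin and 3 genes share chromosome 17. In mm10 (GENCODE M21), Mt2 spans 94172664 to 94173568 and Mt1 94179082 to 94180327 on the plus strand of chromosome 8. On chromosome 17, Fkbp5 spans 28399094 to 28517527 (minus strand), Cdkn1a 29090976 to 29100727 (plus) and Plin4 56100591 to 56109803 (minus). Sgk1 is on chromosome 10 (21882184 to 21999903), Map3k6 on 4 (133240818 to 133252929), Pdk4 on 6 (5483351 to 5496309), Zbtb16 on 9 (48654297 to 48836222) and Tsc22d3 on X (140539528 to 140600659).

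The transcripts differed widely in level. Per kilobase of annotated exon (the union over all transcripts of the gene), the mean level over 64 libraries was 219 CPM per kb for Mt2 and 181 CPM per kb for Mt1, the small zinc- and copper-binding metallothioneins. Tsc22d3, which encodes the anti-inflammatory leucine zipper protein GILZ, was at 39.1 CPM per kb. Sgk1, a serum- and glucocorticoid-induced kinase, was at 38.05 CPM per kb. Pdk4, the kinase that shuts down pyruvate dehydrogenase, was at 6.88 CPM per kb, and Cdkn1a, which encodes the cyclin-dependent kinase inhibitor p21, at 5.66 CPM per kb. Fkbp5, a co-chaperone that lowers the hormone affinity of the receptor, was at 2.45 CPM per kb. Zbtb16, a zinc finger transcription factor, Plin4, a lipid droplet coat protein, and Map3k6, a stress-activated kinase, were the lowest at 0.757, 0.606 and 0.460 CPM per kb. Plin4 lies over Hdgfl2, Mt2 over the antisense gene Gm45774 and Cdkn1a over AC167363.2, each on the opposite strand. Fkbp5 overlaps AC154912.1 and Gm22146 on the opposite strand, and AC154912.5 and AC154912.3 on its own. The strand setting of the counting is not given in the sources used here, so reads of these overlapping genes cannot be told apart. None of the partners is in the count table under these symbols.

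Single mice differed far more in some of the genes than in others. Over the 64 libraries Plin4 spanned 0.171 to 17.1 CPM (4 to 536 counts), a 99.7-fold range. Sgk1 spanned 48.4 to 585 CPM, a 12.1-fold range, Cdkn1a 6.95 to 82.0 CPM, 11.8-fold, and Zbtb16 1.26 to 12.6 CPM, 10-fold. The ranges of Map3k6 (6.88-fold) and Pdk4 (5.67-fold) were intermediate, and those of Fkbp5 (3.15-fold), Tsc22d3 (2.37-fold), Mt2 (2.29-fold) and Mt1 (2.06-fold) the smallest. Within groups, the SD of log2 CPM was above the median of all genes tested (0.20) in 10 of 10, from 0.22 for Mt1 to 1.25 for Plin4.

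**Figure D1:**
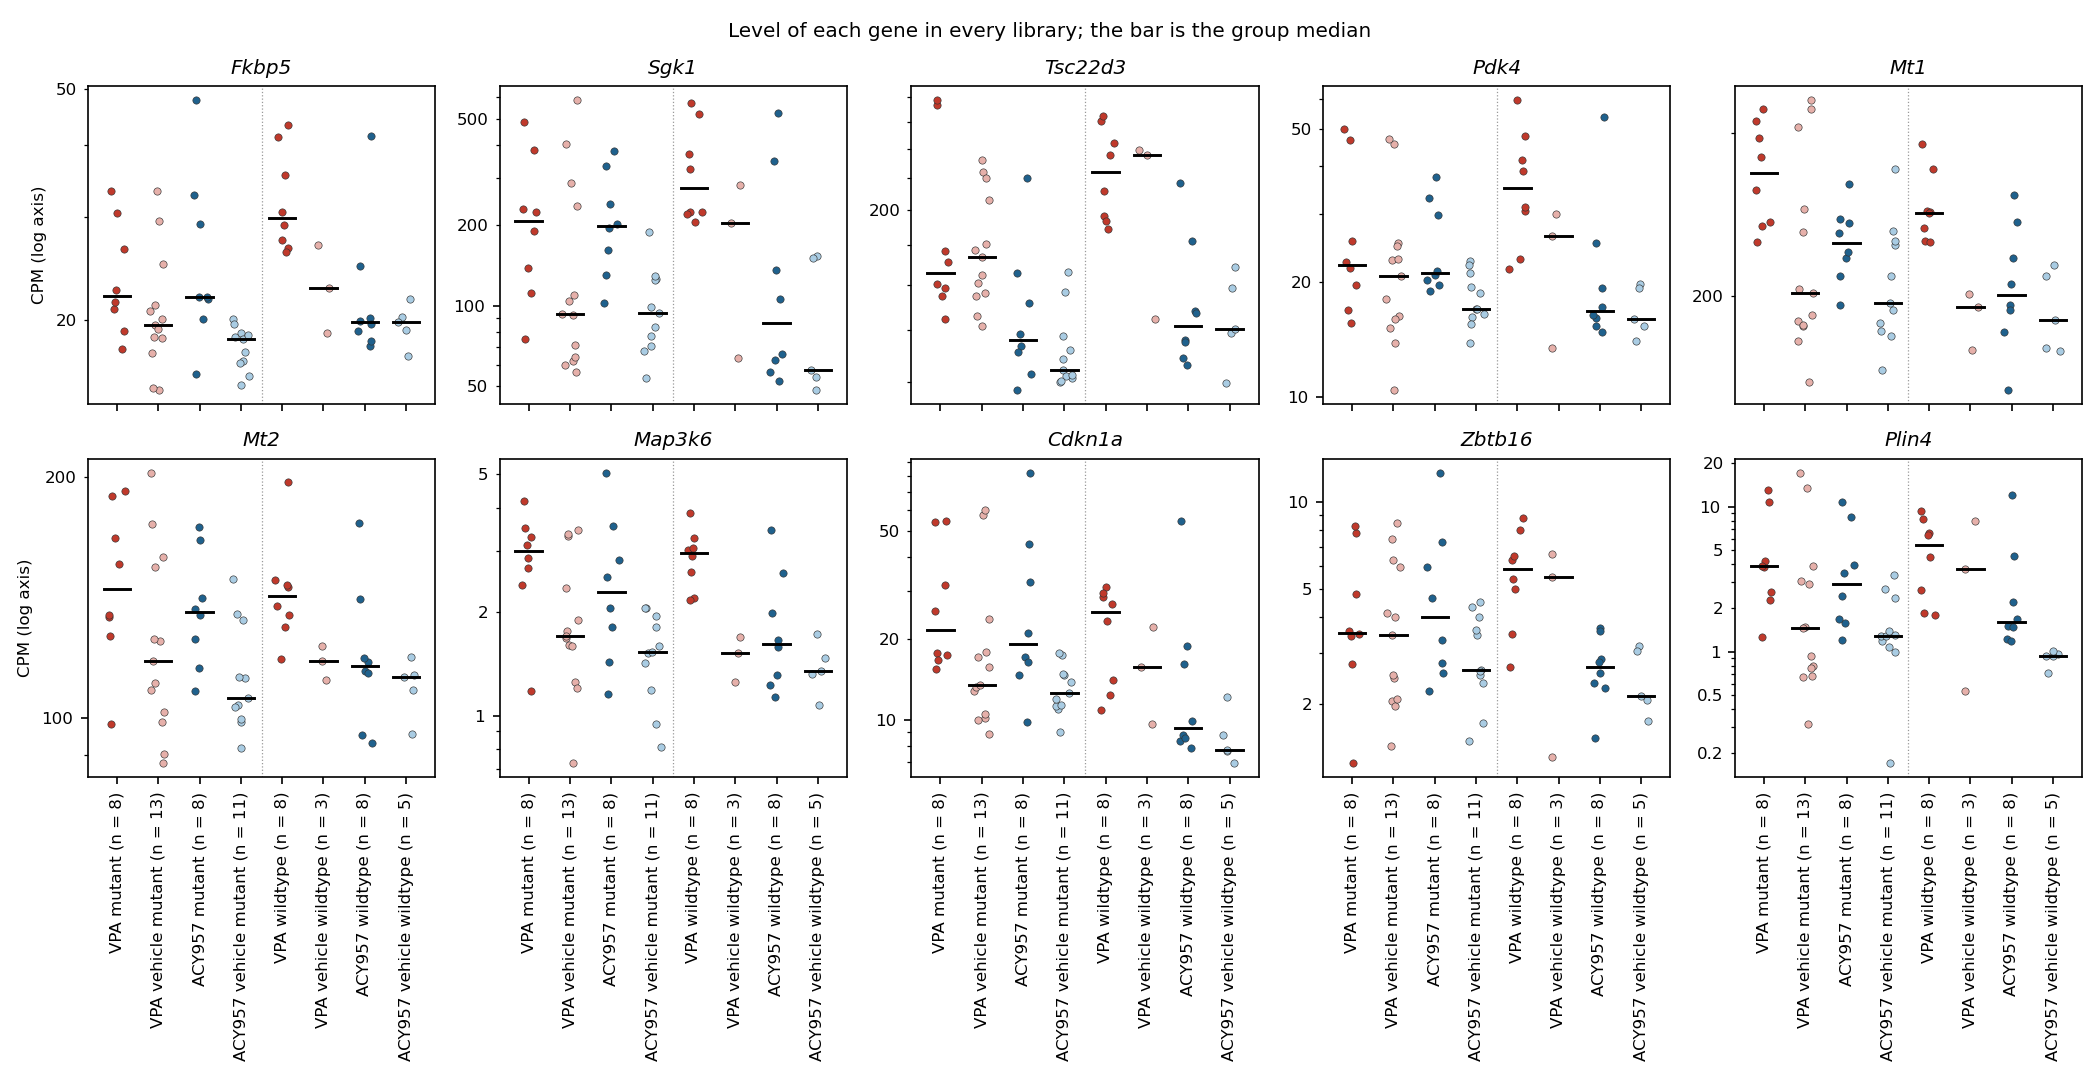
Level of each gene in CPM (log axis) in every library, 1 panel per gene; points are mice, bars group medians, and the dotted line parts mutant-labelled (left) from wildtype-labelled groups (right). Most groups overlap widely, and single libraries such as those at 82.0 CPM for Cdkn1a and 47.7 CPM for Fkbp5 in ACY957 mutant mice stand far above their group median.

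The order of the group means was led by the VPA groups. VPA wildtype mice had the highest mean for 5 genes (Fkbp5, Sgk1, Tsc22d3, Pdk4, Zbtb16), VPA mutant mice for 4 (Mt1, Mt2, Map3k6, Plin4) and ACY957 mutant mice for Cdkn1a. ACY957 vehicle wildtype mice had the lowest mean for 7 genes, ACY957 vehicle mutant mice for Fkbp5 and Tsc22d3, and VPA vehicle wildtype mice for Mt1. Of 70 pairs of neighbouring groups in these orders, 68 differed by less than the larger of their SDs. The other 2 pairs were both between the ACY957 vehicle groups, for Fkbp5 (17.97 ± 1.49 CPM in mutant, n = 11, and 19.7 ± 1.58 CPM in wildtype, n = 5) and for Cdkn1a (13.2 ± 2.72 CPM in mutant and 8.65 ± 2.05 CPM in wildtype, SD).

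VPA was set against its vehicle to ask what the drug changed under each genotype label. In mutant-labelled mice all 10 genes had a positive log2 fold change, from 0.08 (Tsc22d3) to 0.54 (Map3k6), with a median of 0.26, against 0.00 for all genes (49.6% of them positive). This direction did not hold under every alternative. Without the 16 mutant-labelled vehicle mice of the highest numbers, which leaves VPA vehicle replicates 1 to 4, 7 of 10 were positive with a median of 0.04, and Sgk1 (-0.23), Zbtb16 (-0.06) and Plin4 (-0.01) turned. Leaving out VPA mutant replicate 1 or 3 turned Tsc22d3 and Zbtb16 (to -0.03 and -0.06 without replicate 3), and leaving out the libraries discordant in clock output turned Plin4 (-0.05). None passed the test at an adjusted p of 0.05 (edgeR's quasi-likelihood test with Benjamini-Hochberg adjustment over all genes tested, which called 0.0576% of them). At an unadjusted p under 0.05, 2 of 10 were higher, against 7.10% of all genes. Mt1 ran from 228 to 319 CPM with a median of 272 CPM in VPA mutant mice, and from 161 to 326 CPM with a median of 201 CPM in VPA vehicle mutant mice. Its means were 272 ± 34.8 CPM (SD, n = 8) and 225 ± 56.9 CPM (n = 13), and it lay above the vehicle median in 8 of 8 VPA libraries, but the groups overlapped (log2 fold change 0.27, SE 0.10, adjusted p = 0.213, edgeR). Map3k6, the other gene at an unadjusted p under 0.05, ran from 1.18 to 4.18 CPM with a median of 2.99 CPM in VPA mutant mice, and from 0.731 to 3.44 CPM with a median of 1.69 CPM in VPA vehicle mutant mice. It lay above the vehicle median in 7 of 8 VPA libraries (log2 fold change 0.54, SE 0.22, adjusted p = 0.283, edgeR), and the groups again overlapped. Without the late vehicle mice, the log2 fold change was 0.17 for Map3k6 and 0.09 for Mt1.

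Markers of cell types differed in the same comparison. Hypothalamic markers stood high. Their summed level ran from 11.1 to 612 CPM in VPA mutant and from 9.51 to 26.4 CPM in VPA vehicle mutant mice, and Hcrt, Pmch and Tac2 passed the test. Mature oligodendrocyte markers had negative log2 fold changes in 10 of 10 (median -0.23) and dopamine neuron markers in 11 of 11 (median -0.30), with none called. Of all genes, 49.6% were positive. The summed oligodendrocyte level ran from 9577 to 17381 CPM in VPA mutant and from 12775 to 20709 CPM in VPA vehicle mutant mice, and the summed dopamine neuron level from 383 to 10276 CPM and from 1842 to 9886 CPM in the same groups. The part of these cells in the values of the 10 genes was not tested in the comparison. Over all 64 libraries the hypothalamic sum had an r of -0.04 with the average of the 10 described below. Group means were removed first, so this r does not cover the difference between VPA and vehicle mice.

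In wildtype-labelled mice the 10 log2 fold changes of VPA over vehicle were also all positive, from 0.12 (Tsc22d3) to 0.95 (Map3k6), with a median of 0.44 against 0.00 for all genes (49.5% positive). Only 3 vehicle mice carry this comparison, and without VPA vehicle wildtype replicate 3 Plin4 (-0.17), Tsc22d3 (-0.08) and Zbtb16 (-0.07) turned and 7 of 10 were positive. None passed the test (adjusted p = 1.00 for each, edgeR, which called 0.0256% of all genes), and 3 of 10 were higher at an unadjusted p under 0.05, against 2.05% of all genes. Map3k6 ran from 2.16 to 3.87 CPM with a median of 2.96 CPM in VPA wildtype mice, against 1.25, 1.69 and 1.52 CPM in the 3 VPA vehicle wildtype mice. Mt1 ran from 229 to 292 CPM with a median of 246 CPM in VPA wildtype mice, against 201, 175 and 195 CPM in the vehicle mice. For Mt1 and Map3k6 every VPA wildtype library lay above every vehicle library, as groups of these sizes did not overlap for 1.20% of all genes. Fkbp5 ran from 26.1 to 43.2 CPM with a median of 29.9 CPM in VPA wildtype mice, against 26.9, 22.7 and 19.0 CPM in the vehicle mice, so that only the 2 lowest VPA libraries lay under the highest vehicle library. Its log2 fold change was 0.51 (SE 0.22), that of Mt1 0.40 (SE 0.15) and that of Map3k6 0.95 (SE 0.36). VPA wildtype libraries were also the deepest, at 25.7 to 37.5 M counts against 22.6 to 24.5 M counts in VPA vehicle wildtype. The part of depth in these differences was not tested within the comparison. Over all 64 libraries, with group means removed, library total and the mean of the 10 standardised genes had a Pearson r of 0.08. This r does not cover differences between groups. Within VPA wildtype, the mean of the 10 standardised genes was 0.91 to 1.55 SD in replicates 1, 2, 3, 4 and 6, at 31.7 to 37.5 M counts. It was 0.25 SD in replicate 5, at 34.1 M counts, and 0.36 and 0.22 SD in replicates 7 and 8, at 25.7 M counts each.

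ACY957 was set against its own vehicle for the same question. In mutant-labelled mice all 10 genes had positive log2 fold changes, with a median of 0.64 against 0.01 for all genes (52.6% positive), the highest median of the 4 comparisons of a drug with its vehicle. None passed the test (edgeR, which called 0.00640% of all genes), and 7 of 10 were higher at an unadjusted p under 0.05, against 2.97% of all genes. Fkbp5 ran from 16.1 to 47.7 CPM with a median of 21.9 CPM in ACY957 mutant mice, and from 15.4 to 20.04 CPM with a median of 18.5 CPM in ACY957 vehicle mutant mice. It was above the vehicle median in 7 of 8 ACY957 libraries (log2 fold change 0.55, SE 0.15, adjusted p = 0.276, edgeR). Cdkn1a ran from 9.84 to 82.0 CPM with a median of 19.1 CPM in ACY957 mutant mice, and from 9.02 to 17.6 CPM with a median of 12.6 CPM in ACY957 vehicle mutant mice (log2 fold change 1.17, SE 0.36, adjusted p = 0.403, edgeR). For Fkbp5, 7 of 8 ACY957 libraries lay above the highest vehicle library, the lowest of them at 20.05 CPM against 20.04 CPM. For Cdkn1a, 4 of 8 lay above the highest vehicle library and 4 within the vehicle's range. Without ACY957 mutant replicate 7, the log2 fold change of Cdkn1a was 0.75 and that of Zbtb16 0.44.

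Sgk1 under the mutant label ran from 103 to 379 CPM with a median of 199 CPM in ACY957 mice, and from 53.6 to 189 CPM with a median of 94.0 CPM in ACY957 vehicle mice. It was above the vehicle median in 8 of 8 ACY957 libraries (log2 fold change 1.10, SE 0.41, adjusted p = 0.598, edgeR). Plin4 ran from 1.19 to 10.8 CPM with a median of 2.94 CPM in ACY957 mice, and from 0.171 to 3.40 CPM with a median of 1.29 CPM in vehicle mice (log2 fold change 1.41, SE 0.57). Map3k6 (0.72, SE 0.23), Zbtb16 (0.77, SE 0.31) and Mt2 (0.28, SE 0.12) were the other genes at an unadjusted p under 0.05, and Pdk4 (0.47, SE 0.24), Tsc22d3 (0.16, SE 0.12) and Mt1 (0.14, SE 0.10) were not. With the vehicles pooled, Tsc22d3 turned to -0.10 and 9 of 10 stayed positive.

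Other markers differed in this comparison as well, with none called. Mature oligodendrocyte markers had negative log2 fold changes in 10 of 10 (median -0.25), clock output genes in 8 of 8 (median -0.15) and mural markers in 5 of 5 (median -0.10). The summed oligodendrocyte level ran from 9360 to 16228 CPM in ACY957 mutant and from 11885 to 16940 CPM in ACY957 vehicle mutant mice, and the summed mural level from 188 to 262 CPM and from 212 to 271 CPM in the same groups. The groups overlapped in both sums. The part of these markers in the values of the 10 genes was not tested.

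In wildtype-labelled mice the log2 fold changes of ACY957 over vehicle were all positive as well, from 0.07 (Tsc22d3) to 1.83 (Plin4), with a median of 0.30 against 0.00 for all genes (49.2% positive). None passed the test (edgeR, which called 0.00640% of all genes), and 2 of 10, Cdkn1a and Plin4, were higher at an unadjusted p under 0.05, against 1.64% of all genes. Plin4 ran from 1.18 to 12.1 CPM with a median of 1.59 CPM in ACY957 wildtype mice, against 0.968, 0.709, 0.928, 0.935 and 1.01 CPM in the 5 vehicle mice. These groups did not overlap, as was so for 0.160% of all genes, but 6 of the 8 ACY957 libraries lay at 2.19 CPM or lower and the counts were low (19 to 26 in the vehicle mice). Cdkn1a ran from 7.84 to 54.4 CPM with a median of 9.34 CPM in ACY957 wildtype mice, against 6.95, 12.1, 8.78, 7.67 and 7.71 CPM in the vehicle mice (log2 fold change 0.94, SE 0.47). Its highest value came from ACY957 wildtype replicate 6, whose next library was at 18.8 CPM. Without replicate 6 the log2 fold change of Cdkn1a was 0.37 and that of Plin4 1.13, the median over the 10 genes was 0.08, and Tsc22d3 turned to -0.02. Of 10 oligodendrocyte markers 10, and of 11 dopamine neuron markers 11, had negative log2 fold changes here (medians -0.08 and -0.26), with none called, and their part was not tested.

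Averaged over both labels, VPA over vehicle gave a median log2 fold change of 0.39 and ACY957 over vehicle one of 0.45, each with 10 of 10 positive against 50.2% and 51.1% of all genes, and with none of the 10 genes past the threshold in either (edgeR, which called 0.0704% and 0.0256% of all genes). At an unadjusted p under 0.05, 5 of 10 were higher under VPA, against 5.40% of all genes, and 7 of 10 under ACY957, against 3.88%. The smallest adjusted p was that of Mt1 for VPA (log2 fold change 0.33, SE 0.09, adjusted p = 0.133, edgeR) and that of Cdkn1a for ACY957 (1.05, SE 0.30, adjusted p = 0.184, edgeR). DESeq2 and limma voom also called 0 of 10 in these and in the 4 comparisons within labels. Members are correlated between mice, so the sign of 10 genes is not 10 separate observations. Tsc22d3 under VPA came to -0.0031 without VPA vehicle wildtype replicate 3. With both kinds of vehicle pooled, VPA over vehicle passed for 8 of 10 genes (all but Zbtb16 and Plin4), against 2.95% of 15255 genes. Their log2 fold changes ran from 0.34 (Mt2, SE 0.09, adjusted p = 0.0243, edgeR) to 1.06 (Sgk1, SE 0.30, adjusted p = 0.0374), and Map3k6 had the smallest adjusted p (0.86, SE 0.16, adjusted p = 0.00238). ACY957 over the pooled vehicles passed for 0 of 10, against 1.52% of all genes, with 3 at an unadjusted p under 0.05 (Fkbp5, Map3k6, Cdkn1a) and Tsc22d3 turned to -0.12. Pooling joins 2 kinds of vehicle that themselves differed. All 10 genes were higher on average in VPA vehicle than in ACY957 vehicle mice labelled mutant, as given below.

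**Figure D2:**
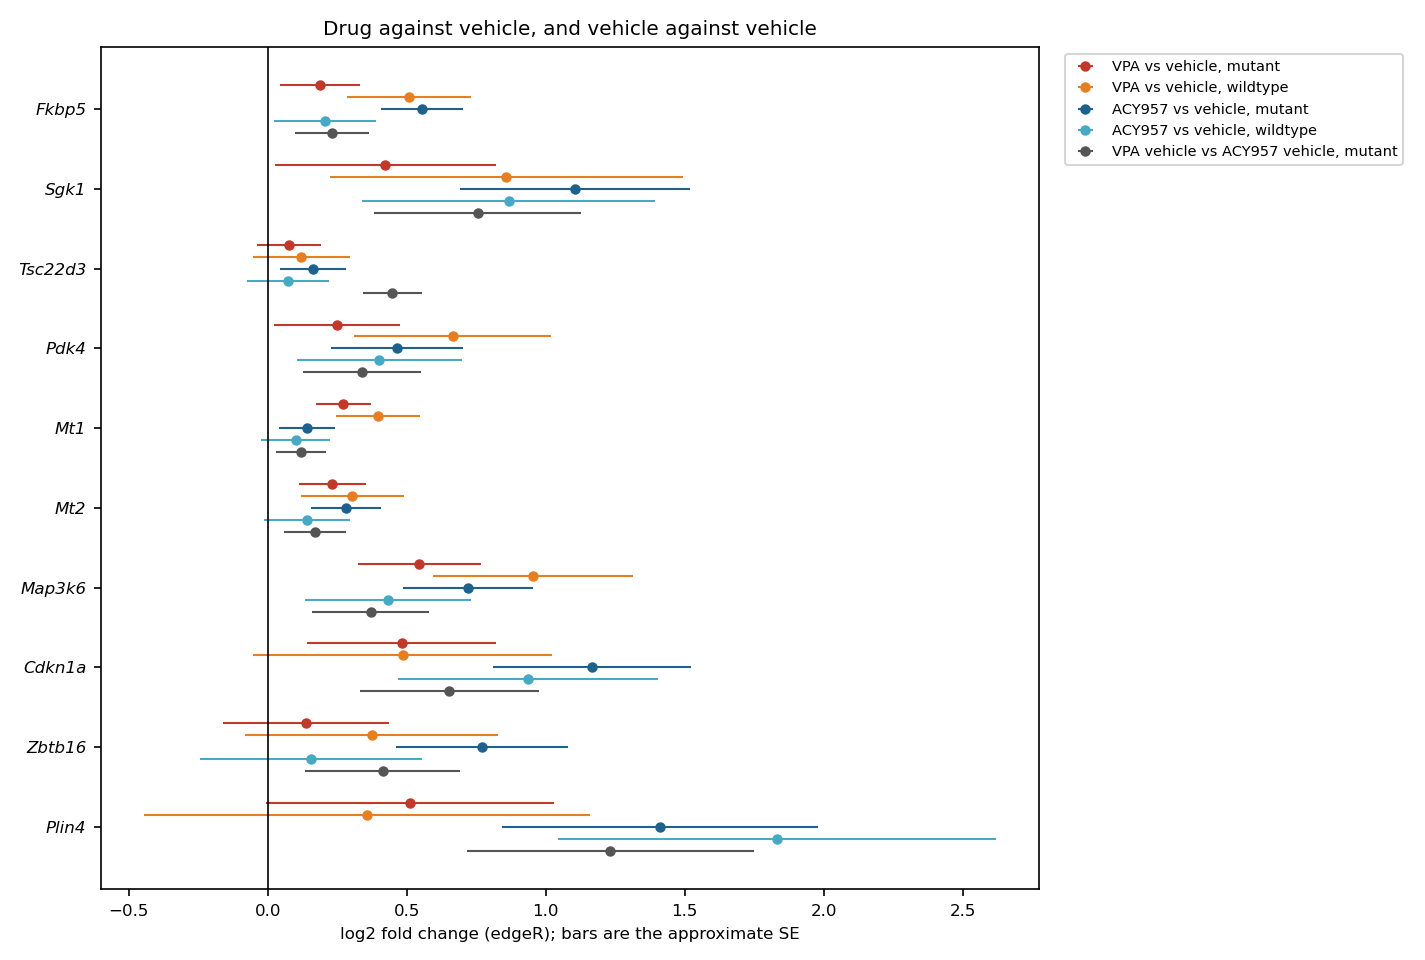
Log2 fold change (points) with its approximate standard error (bars) for each gene, for each drug against its vehicle under each label and for VPA vehicle against ACY957 vehicle in mutant-labelled mice. All points lie right of 0 with every library included, and the only call among them is that of Tsc22d3 between the vehicles, at 0.45.

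Both drugs inhibit histone deacetylases, and the difference of their effects was tested over both labels, each drug against its own vehicle. None of the 10 genes passed (edgeR, which called 0.0128% of all genes), and 0 of 10 had an unadjusted p under 0.05, against 6.09% of all genes. DESeq2 and limma voom called 0 as well. The difference of VPA minus ACY957 effects ran from -1.19 (Plin4, SE 0.67) to 0.21 (Mt1, SE 0.12), with a median of -0.03. A difference that misses the threshold does not show that the drugs act alike on these genes. With the vehicles pooled, which amounts to setting VPA against ACY957 mice directly, Tsc22d3 was higher in VPA mice by 0.46 (SE 0.11, adjusted p = 0.00348, edgeR) and Mt1 by 0.26 (SE 0.08, adjusted p = 0.0209, edgeR), against 11.4% of genes called. VPA vehicle over ACY957 vehicle mice already gave 0.45 (mutant label) and 0.51 (wildtype label) for Tsc22d3. For Mt1 the vehicles gave 0.12 and -0.02 under the same labels. Doses are not given in the sources used here, so the drugs cannot be placed at matched doses.

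No difference of a drug's effect between the labels passed the test, which does not show that the effects were alike. The interaction for VPA, mutant minus wildtype effect, was negative for 9 of 10 genes (49.8% of all genes positive), from -0.44 (Sgk1, SE 0.73) to 0.16 (Plin4, SE 0.95), and that for ACY957 was positive for 9 of 10 (52.3% of all genes positive), from -0.42 (Plin4, SE 0.97) to 0.62 (Zbtb16, SE 0.51). None of the 10 passed in either, and 0 had an unadjusted p under 0.05, against 2.84% and 1.84% of all genes (edgeR, which called 0.00640% of all genes for VPA and 0 for ACY957). DESeq2 and limma voom called 0 of 10 in both.

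The vehicles were set against each other as a control on the drug comparisons. Tsc22d3 was higher in VPA vehicle than in ACY957 vehicle mice labelled mutant, the only call among the 10 genes over the 15 comparisons. It ran from 142 to 233 CPM with a median of 174 CPM in VPA vehicle mice, and from 120 to 166 CPM with a median of 124 CPM in ACY957 vehicle mice. All 13 VPA vehicle libraries lay above the ACY957 vehicle median, though the groups overlapped between 142 and 166 CPM. The means were 180 ± 30.9 CPM (SD, n = 13) and 132 ± 15.8 CPM (SD, n = 11), which gave 0.45 on the log2 scale (SE 0.11, adjusted p = 0.0134, edgeR). The test called 3.66% of all genes in this comparison, so 1 of 10 is to be read against that share. Without the 16 mutant-labelled vehicle mice of the highest numbers, which leaves 4 on each side, the difference was 0.54 and no longer passed (adjusted p = 0.152, edgeR). Fos, an immediate early gene, was also higher in VPA vehicle mice (13.3 ± 8.25 CPM, against 5.24 ± 1.54 CPM in ACY957 vehicle mice, SD), as were the endothelial Ly6c1 and the pericyte marker Rgs5. No other gene of the 8 endothelial and 5 mural markers was called. Dopamine neuron markers had negative log2 fold changes in 11 of 11 (median -0.39), with none called, while 51.2% of all genes were positive. The part of these genes and cells in the Tsc22d3 difference was not tested.

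The remaining 9 genes were also higher on average in VPA vehicle mice labelled mutant, with a median over the 10 of 0.39 against 0.00 for all genes (51.2% positive), and 4 of 10 at an unadjusted p under 0.05, against 11.5% of all genes. Plin4 ran from 0.313 to 17.1 CPM with a median of 1.46 CPM in VPA vehicle mice, and from 0.171 to 3.40 CPM with a median of 1.29 CPM in ACY957 vehicle mice. The medians were close and 2 VPA vehicle libraries, replicates 10 and 1, made the upper end. Without replicate 10 the log2 fold change of Plin4 was 0.69, against 1.23 with it. Under the wildtype label the same comparison of 3 with 5 libraries gave 9 of 10 positive log2 fold changes, against 48.1% of all genes, with none called (edgeR called 0 of all genes, DESeq2 and limma voom 0 of the 10). There 2 of 10, Tsc22d3 and Plin4, were higher at an unadjusted p under 0.05, against 1.98% of all genes. Tsc22d3 was at 239, 236 and 144 CPM in VPA vehicle wildtype mice, against 120, 169, 139, 140 and 159 CPM in ACY957 vehicle wildtype mice (log2 fold change 0.51, SE 0.19). The VPA vehicle libraries enter both this comparison and that of VPA with its vehicle.

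Genotype labels were compared within each treatment. Under VPA, none of the 10 genes passed between mutant and wildtype labels, while the test called 1.00% of all genes (edgeR). Fkbp5 ran from 17.8 to 33.3 CPM with a median of 21.98 CPM in VPA mutant mice, and from 26.1 to 43.2 CPM with a median of 29.9 CPM in VPA wildtype mice. It lay above the wildtype median in 2 of 8 mutant-labelled libraries, and its log2 fold change was -0.44 (SE 0.16, adjusted p = 0.158, edgeR). It was the only one of the 10 at an unadjusted p under 0.05, against 15.7% of all genes. Under ACY957 the test called 0 of all genes, and 2 of the 10 were higher at an unadjusted p under 0.05, against 2.17% of all genes. Zbtb16 ran from 2.22 to 12.6 CPM with a median of 4.00 CPM in ACY957 mutant mice, and from 1.53 to 3.67 CPM with a median of 2.69 CPM in ACY957 wildtype mice (log2 fold change 0.92, SE 0.34, adjusted p = 0.866, edgeR). Cdkn1a was the other (0.84, SE 0.39), and lay above the wildtype median in 8 of 8 mutant-labelled libraries. Between labels in VPA vehicle and in ACY957 vehicle mice 0 of 10 passed and 0 of 10 had an unadjusted p under 0.05, against 5.15% and 3.61% of all genes (edgeR, which called 0.00640% and 0.0128%). DESeq2 and limma voom called 0 of 10 in all 4 comparisons of the labels.

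The 10 genes varied together between mice of the same group. In 15 of the 64 libraries all 10 genes lay above their own median over the libraries, and in 11 libraries all 10 lay at or below it. The 15 were 4 of 8 VPA mutant, 2 of 13 VPA vehicle mutant, 2 of 8 ACY957 mutant, 5 of 8 VPA wildtype and 2 of 8 ACY957 wildtype libraries, and no library of the 11 ACY957 vehicle mutant, 3 VPA vehicle wildtype or 5 ACY957 vehicle wildtype mice. As a summary, each gene's log2 CPM was standardised over the 64 libraries and the 10 were averaged. The highest averages were those of VPA mutant replicates 1 and 3 (1.75 SD each), VPA vehicle mutant replicates 10 and 1 (1.70 and 1.69 SD), ACY957 mutant replicate 7 (1.59 SD), VPA wildtype replicate 2 (1.55 SD) and ACY957 wildtype replicate 6 (1.51 SD). High libraries thus came from both labels, both drugs and the VPA vehicle. Group means of this average were 0.56 ± 0.81 in VPA mutant and -0.09 ± 0.92 in VPA vehicle mutant mice, and 0.29 ± 0.76 in ACY957 mutant and -0.58 ± 0.36 in ACY957 vehicle mutant mice (SD). Under the wildtype label they were 0.89 ± 0.54 for VPA, -0.08 ± 0.75 for VPA vehicle, -0.29 ± 0.87 for ACY957 and -0.76 ± 0.26 for ACY957 vehicle.

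**Figure D3:**
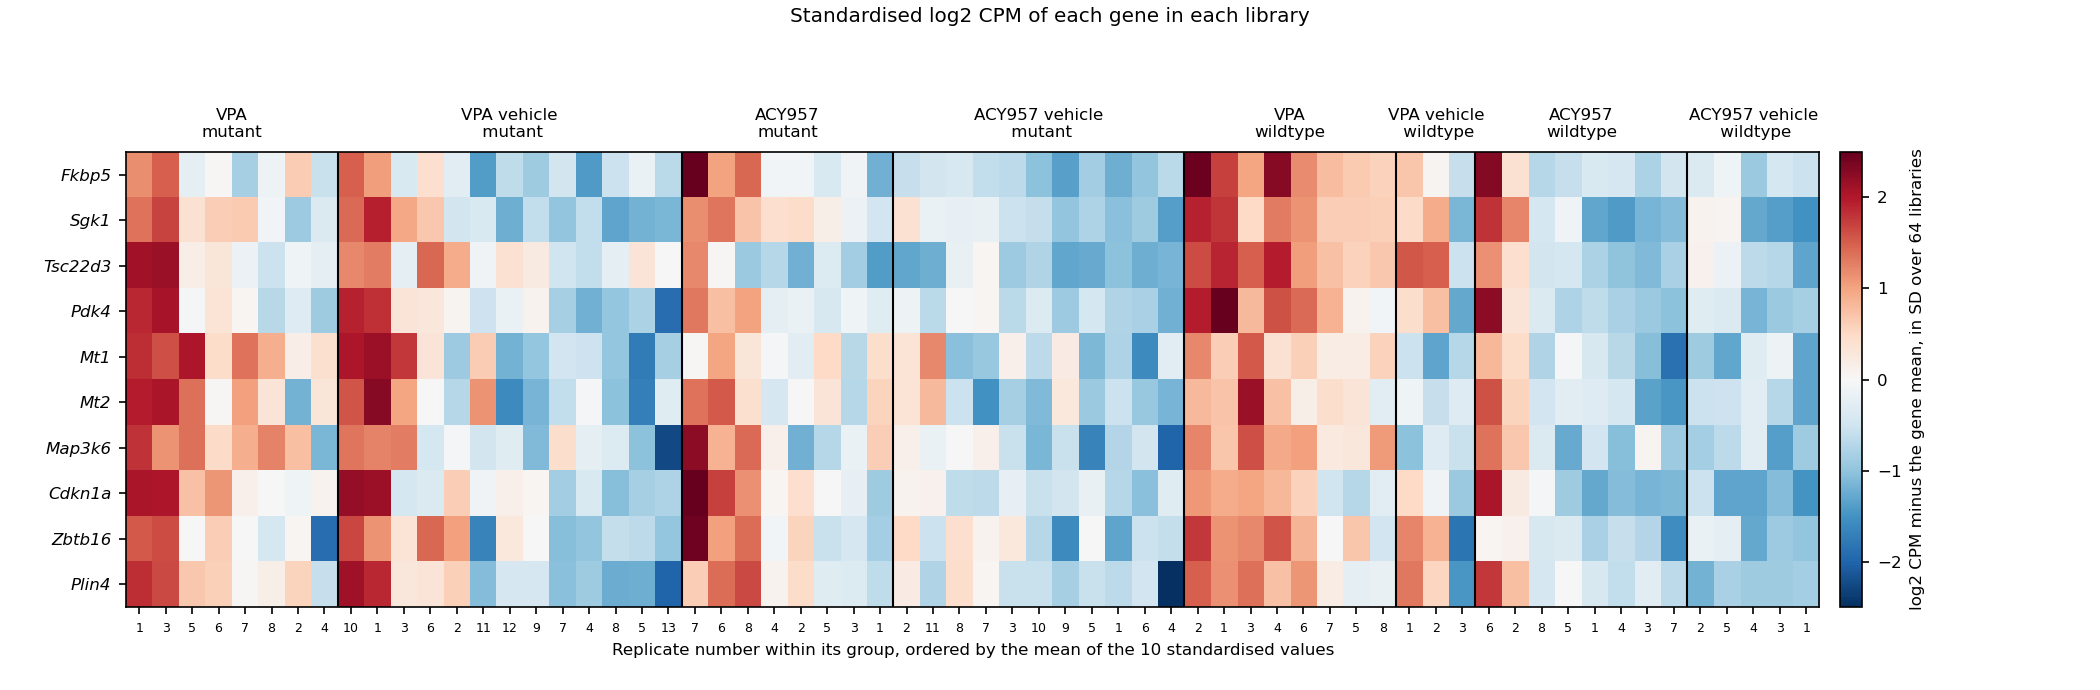
Log2 CPM of each gene in each library, minus the gene's mean and in units of its SD over the 64 libraries; columns are mice, ordered within each group by the mean of the 10 values, and group names stand above. The columns of VPA mutant replicates 1 and 3 and VPA vehicle mutant replicates 10 and 1 are above the mean for all 10 genes, and no ACY957 vehicle column has all 10 above the median.

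With group means removed from log2 CPM, each of the other 9 genes was correlated with Fkbp5 over the 64 libraries (permutation test with 100000 permutations, two-sided, Benjamini-Hochberg adjusted over 9). Cdkn1a had a Pearson r of 0.81 (Spearman rho 0.66), Pdk4 0.81 (rho 0.76), Zbtb16 0.77 (rho 0.80), Tsc22d3 0.77 (rho 0.68), Plin4 0.71 (rho 0.75) and Sgk1 0.69 (rho 0.61). For each of these 6, p was 1e-05 for both measures, the smallest these permutations can give (adjusted p = 1.29e-05 for r and 1.5e-05 for rho). Map3k6 had r = 0.56 with p = 1e-05 and rho = 0.48 with p = 2e-05 by permutation (adjusted p = 1.29e-05 and 2.57e-05). Mt2 had r = 0.46 with permutation p = 0.00022 and rho = 0.35 with p = 0.0042 (adjusted p = 0.000247 and 0.00472), and Mt1 r = 0.37 with permutation p = 0.00228 and rho = 0.28 with p = 0.0227 (adjusted values the same). Without the 2 libraries farthest from the Fkbp5 median, ACY957 mutant replicate 7 and ACY957 wildtype replicate 6, r was 0.75 for Cdkn1a, 0.78 for Pdk4, 0.79 for Zbtb16, 0.72 for Tsc22d3, 0.74 for Plin4, 0.66 for Sgk1, 0.45 for Map3k6, 0.37 for Mt2 and 0.37 for Mt1. Values were permuted over all 64 libraries and not within groups, although the groups differ in spread. The labels give no batch within which to repeat this. The share of all genes that would pass against Fkbp5 in the same test was not computed.

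All 45 pairs of the 10 genes were positively correlated, with Pearson r from 0.30 to 0.87 and a median of 0.68, and all 45 passed (permutation test, largest adjusted p = 0.0154). The share of other gene pairs that would pass was not computed, so this count has no background to be read against. Pdk4 and Plin4, the fuel and lipid genes, formed the closest pair at 0.87, followed by the neighbouring metallothioneins Mt1 and Mt2 at 0.86. The metallothioneins stood somewhat apart, with r of 0.30 between Mt1 and Tsc22d3 and 0.32 between Mt1 and Zbtb16, while their r with Sgk1 was 0.64 (Mt1) and 0.70 (Mt2).

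**Figure D4:**
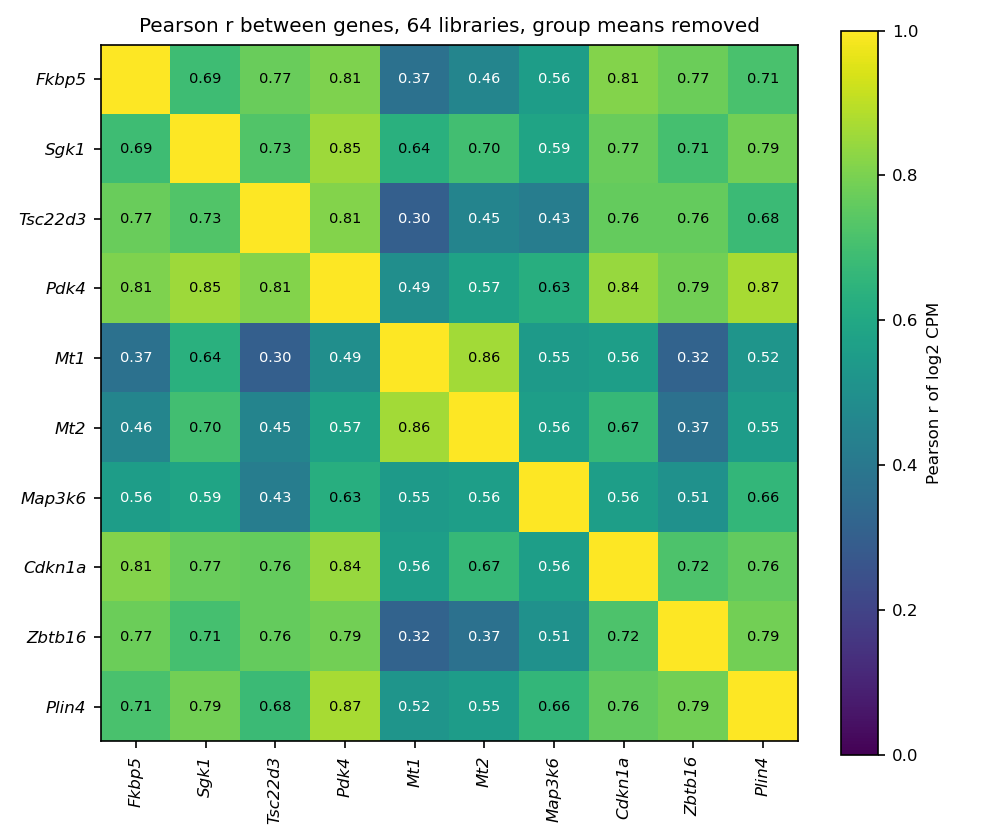
Pearson r of log2 CPM between each pair of the 10 genes over 64 libraries, after each group's mean was subtracted; the colour scale runs from 0 to 1. All 45 pairs are above 0.30, and the rows of Mt1 and Mt2 are lowest against Fkbp5, Tsc22d3 and Zbtb16.

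The receptors themselves did not show this pattern. Nr3c1, the glucocorticoid receptor gene, had group means of 94.4 to 110 CPM in the 8 groups, and Nr3c2, the mineralocorticoid receptor gene, of 13.9 to 17.1 CPM, and neither passed in any of the 15 comparisons. Hsd11b1, whose enzyme regenerates active hormone within cells, passed in 1 comparison, higher in VPA vehicle (36.7 ± 6.10 CPM, SD, n = 13) than in ACY957 vehicle mice labelled mutant (26.8 ± 5.14 CPM, n = 11), by 0.45 on the log2 scale (SE 0.11, adjusted p = 0.0156, edgeR), with 12 of 13 libraries above the ACY957 vehicle median. For VPA over vehicle averaged over both labels its log2 fold change was -0.46 (SE 0.11, adjusted p = 0.0586, edgeR), opposite in sign to all 10 glucocorticoid-responsive genes. It was at 20.3 to 31.1 CPM with a median of 29.04 CPM in VPA wildtype mice, against 32.8, 45.3 and 46.6 CPM in the VPA vehicle wildtype mice in ascending order. Of 14 genes for the receptors, their chaperones and coregulators, Hsd11b1 was the only one called in any comparison. Over the mice, 0 of the 14 had a Pearson r above 0.5 with the average of the 10 standardised genes (group means removed, 64 libraries), the median r was -0.13, and Nr3c1 was at -0.17.

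Other genes known to be induced by glucocorticoids followed the 10. Of 20 such genes, 15 (75%) had an r above 0.5 with the average, against 1.38% of the other 15624 genes tested, and the median r was 0.74 against -0.01. They included Klf15 (0.91) and Klf9 (0.72), Krüppel-like transcription factors, Ddit4 (0.88), an inhibitor of mTORC1, Hif3a (0.83), Nfkbia (0.83), the inhibitor of NF-kB, and Cebpd (0.82). Those at or below 0.5 were Per1 (0.37), Lcn2 (0.36), Cebpb (0.27), Gpd1 (0.24) and Rhob (0.01). These r describe likeness, carry no test, and share the libraries and their scaling with the average. In the drug comparisons none of the 20 passed, while 15 to 19 had positive log2 fold changes, against 49.2% to 52.6% of all genes. Their medians were 0.15 for VPA and 0.18 for ACY957 in mutant-labelled mice, and 0.29 for VPA and 0.24 for ACY957 in wildtype-labelled mice. The medians of all genes lay between -0.002 and 0.006. Most of the 20 follow the average between mice, so their signs are not 20 separate observations. Glul, glutamine synthetase, and Gpd1, a glycerol phosphate dehydrogenase, were higher in VPA vehicle than in ACY957 vehicle mice labelled mutant (0.25, SE 0.08, adjusted p = 0.0417, and 0.42, SE 0.12, adjusted p = 0.0306, edgeR), the only 2 of the 20 called in any comparison. The test called 3.66% of all genes between these vehicles.

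Among all genes, the 8 most alike to the average of the 10 were Pnpla2 (0.92), the triglyceride lipase ATGL, Klf15 (0.91), Adipor2 (0.91), an adiponectin receptor, Itpk1 (0.91), an inositol phosphate kinase, Arl4d (0.89), Fam83d (0.88), Ddit4 (0.88) and Rhpn2 (0.86), by Pearson r over 64 libraries with group means removed. Adipor2 spanned 104 to 327 CPM over the libraries and Fam83d 1.18 to 14.8 CPM. The members' own r with the average, which contains them, ran from 0.68 (Mt1) to 0.93 (Pdk4).

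Lists for other signals known to act on some of these genes were also set beside the average. Of 10 other targets of p53, which also induces Cdkn1a, 0 had r above 0.5 (median 0.12). Of 6 other metal-responsive genes, 0 did (median 0.07), with Slc30a1, the zinc exporter that metal induces, at -0.48. Of 10 other fasting and PPAR targets, 1 did (Ucp2, 0.53, median 0.28), while the r of their summed CPM was 0.67, above that of the astrocyte sum given below (0.50) and below that of the summed other glucocorticoid-induced genes (0.81). Of 9 immediate early genes tested, 0 did, though the median was 0.41 and Fosl2 (0.49), Nr4a1 (0.49), Fosb (0.47) and Fos (0.46) came near. Of 8 clock output genes 0 did (median -0.15). The r of summed CPM was 0.39 for p53 targets, 0.24 for metal-responsive, 0.40 for immediate early and -0.11 for clock output genes. A sum is weighted to its most abundant genes. Among the other glucocorticoid-induced genes, the highest mean was that of Glul (2418 CPM, r 0.75), followed by Rhob (394 CPM, r 0.01). Counts above 0.5 are to be read against 1.38% of the other genes tested. The cause of the variation that the 10 genes share between mice was not tested, for glucocorticoid hormone or for these other signals.

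**Figure D5:**
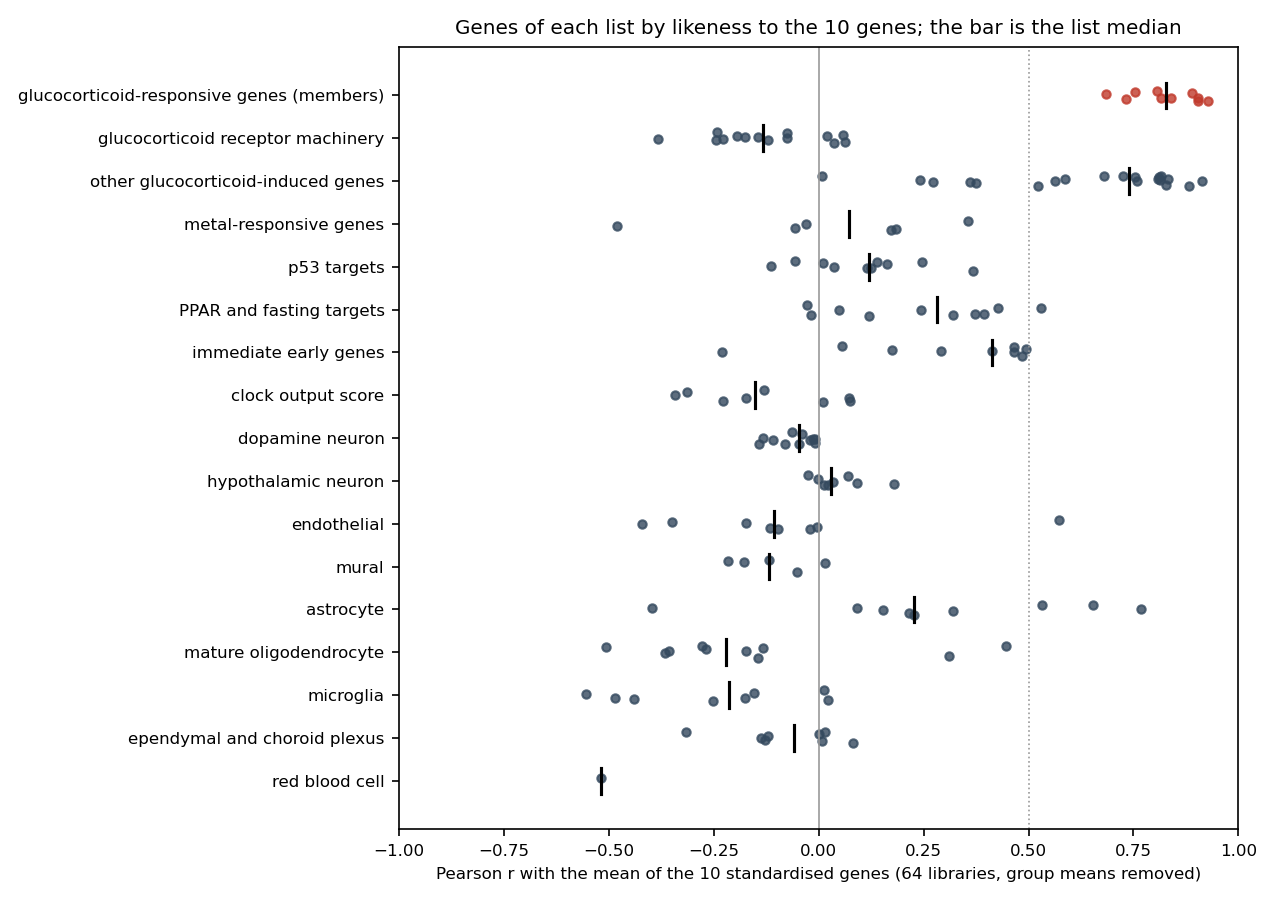
Pearson r of each gene with the average of the 10 standardised genes over 64 libraries, group means removed; each row is a list, points are its genes, black bars medians, and the dotted line marks 0.5. The 10 genes, which enter the average, lie between 0.68 and 0.93; 15 of 20 other glucocorticoid-induced genes lie right of 0.5, and the 14 receptor machinery genes all lie left of 0.1.

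Cell type markers were set beside the average in the same way. Of 9 astrocyte markers 3 had r above 0.5 (Gjb6 0.77, Fgfr3 0.65, Aldoc 0.53), while Aqp4, which was lower under VPA over both labels (-0.55, SE 0.12, adjusted p = 0.0392, edgeR), was at -0.40, and the r of their summed CPM was 0.50. Those sums ran from 5980 to 6774 CPM in VPA mutant, 5268 to 7098 CPM in VPA vehicle mutant, 5943 to 6384 CPM in ACY957 mutant and 5339 to 6593 CPM in ACY957 vehicle mutant mice. In wildtype-labelled mice they ran from 5257 to 6861 CPM under VPA, 5741 to 6668 CPM under VPA vehicle, 5363 to 6490 CPM under ACY957 and 5599 to 6015 CPM under ACY957 vehicle. Of 8 endothelial markers 1 had r above 0.5 (Ly6c1, 0.57), with a summed r of 0.01, and the dopamine neuron sum was at -0.07. Summed r was -0.16 for mural, -0.23 for mature oligodendrocyte, -0.28 for microglia, -0.28 for ependymal and choroid plexus and -0.04 for hypothalamic neuron markers. Of 5 red blood cell genes the 4 globins are listed at 0 in all libraries, and Alas2 alone had r = -0.52. The part of cell make-up in the shared variation of the 10 genes was not tested. Without the 4 libraries low in Th, the r of Fkbp5 with the other 9 ran from 0.43 (Mt1) to 0.85 (Cdkn1a).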

How the data were processed

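RNA was measured in 64 libraries of ventral tegmental area, prepared with a stranded poly(A) kit and read at 75 bases, per the labels' protocols. The authors deposited raw read counts per gene symbol, with no normalization. Alignment to mm10 was with TopHat2 2.0.9 per the series' design text, and with HISAT2 after Trimmomatic per the submitters' processing notes, so these sources disagree. Both name FastQC (0.11.3 in the design text) and HTSeq (0.6.1, union mode). Whether counting used strand is not given in the sources used here.

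Groups followed the labels. Counts were fitted in R 4.3.3 with edgeR 4.0.16 (TMM, filterByExpr, quasi-likelihood F tests) in 1 model of 8 groups over 64 libraries. P-values were adjusted by Benjamini-Hochberg over 15634 genes within each of the comparisons, with a threshold of 0.05. SE was taken as |log2 fold change| divided by the square root of the F statistic. CPM use TMM-scaled totals, and log2 CPM a prior count of 0.5. Likeness to the 10 genes used log2 CPM with group means removed. Positions come from GENCODE M21 and promoter sequences from RefSeq (GRCm38.p6). The procedure was tested on simulated data.

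The 10 genes, the other gene lists and the alternatives were chosen with earlier results of these data known. Named genes are the 10, Nr3c1, Nr3c2, Hsd11b1, Clock and Th as checks, list genes that passed (clock and cell type genes are given only where they bear on the 10), and the 8 genes most alike. Alternatives were DESeq2 1.42.0, limma voom 3.58.1, no low-count filter, the compared groups alone, pooled vehicles, leaving out 16 late vehicle libraries, 4 libraries low in Th or 13 discordant in clock output, and leaving out each library in turn. P-values measure the spread between mice.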

Additional observations from a re-analysis of the deposited data

Results flagged for a closer look

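In groups of 4 to 10 libraries, 6 of 50 sets of values held a library far from the others, where chance flags about 1 in 20. In ACY957 wildtype replicate 6, Fkbp5 was at 41.5 CPM with the next library at 24.7 CPM, Pdk4 at 53.8 CPM with the next at 25.2 CPM, and Cdkn1a at 54.4 CPM with the next at 18.8 CPM. Mt2 was at 197 CPM in VPA wildtype replicate 3, with the next library at 149 CPM. Map3k6 was lowest in VPA mutant replicate 4, at 1.18 CPM with the next at 2.38 CPM. Plin4 was lowest in ACY957 vehicle wildtype replicate 2, at 0.709 CPM with the next at 0.928 CPM, a gap of a few counts.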

How the results depend on the processing

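Of 465 counts of called genes recomputed under the alternatives, 461 stayed within 1.5 times their main value. Except between the vehicles under the mutant label, the main count of every comparison of groups was 0, so there a kept count was again 0. Of 4630 single log2 fold changes, 4469 kept their direction and side of the threshold. Size was not part of that count. Plin4 for ACY957 under the wildtype label, for example, went from 1.83 to 0.65 with vehicles pooled. For VPA against vehicle over both labels, 0 of 10 genes passed, but 8 passed with the vehicles pooled, where ACY957 vehicle mice join the vehicle. Leaving out 1 library at a time gave 0 to 1, and the 1 was Mt1 without VPA vehicle mutant replicate 1 (log2 fold change 0.36, adjusted p = 0.0495, edgeR). For the VPA effect minus the ACY957 effect, 0 passed, but 2 passed with vehicles pooled, and Tsc22d3 turned from -0.02 to 0.46, since the vehicles then cancel. Between the vehicles under the mutant label, 1 passed, and 0 without the 16 late vehicle libraries, which leaves fewer mice. Elsewhere Tsc22d3 held in that comparison (adjusted p = 0.00301 to 0.0233, edgeR, DESeq2 and limma voom, leaving out single libraries aside). In each drug against its vehicle within a label, 10 of 10 genes were positive, but 7 were for VPA under the mutant label without the late vehicle mice (median 0.04) and under the wildtype label without VPA vehicle replicate 3, and 8 for ACY957 under the wildtype label with vehicles pooled. The cause was not tested. No paired analysis was possible because the labels carry no replicate numbers that mice of different groups share. Low counts limit Plin4 (4 to 536) and Map3k6 (19 to 125).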
